A study of Homo sapiens with 6 samples.

Results

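The desmosome genes described here are 10 genes chosen by symbol: the desmosomal cadherins DSG2, DSC2 and DSC3, the armadillo proteins JUP, PKP2, PKP3 and PKP4, and the plakins DSP, PPL and EVPL. All 10 symbols matched 1 row each among the 58735 genes of the deposited table, which gives GRCh38 coordinates. RNA was sequenced from SW480, an established line of human colorectal cancer cells. One group of 3 libraries had been transfected with an siRNA against ITGB4, the integrin β4 subunit, and the other 3 with a negative control siRNA. The series describes the 3 libraries of each group as biological replicates, and the labels give all 6 the genotype WT. All cells are of 1 line and 1 ITGB4 siRNA is named, with no sequence or time after transfection in the sources used here, so the p-values measure the spread between these transfected cultures. The comparison asks whether desmosome transcripts differ when ITGB4 RNA is depleted.

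Desmosomes are spot-like junctions that tie the keratin filaments of neighbouring epithelial cells together. Desmogleins (DSG) and desmocollins (DSC) are cadherins that adhere across the gap between cells, plakoglobin (JUP) and the plakophilins (PKP) bind their tails inside the cell, and desmoplakin (DSP) links this plaque to keratins. Simple epithelia such as that of the colon use mainly DSG2 and DSC2, while the other desmogleins and desmocollins belong chiefly to stratified epithelia such as skin. Integrin α6β4 serves the other keratin-anchored junction, the hemidesmosome, which fixes the cell to its basement membrane.

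Read numbers recovered from the deposited values came to 13715266 to 15496274 per library. ITGB4 was measured at 41.1, 38.1 and 37.9 FPKM (a level per kilobase of gene and per sequencing depth) in the ITGB4 siRNA libraries, against 74.3, 63.8 and 69.8 FPKM in the control siRNA libraries, so the targeted RNA was lower but not lost, a difference of -43.7%. Its log2 fold change was -0.81 (95% confidence interval -0.97 to -0.66, limma adjusted p = 0.0148), a call lost in 7 of the 15 alternatives, where the adjusted p reached 0.137. Of the colon epithelial markers, EPCAM (94.8 to 100.4 FPKM over the 6 libraries), KRT8, KRT18 and KRT19 were abundant, whereas CDH1 reached 5.84 to 6.52 FPKM and VIL1 0.595 to 0.977 FPKM. KRT5, a keratin of basal stratified epithelium, was at 489.4 to 554.2 FPKM in the 6 libraries, while its usual partner KRT14 and the stratified markers IVL and DSG3 were listed at 0. Of the other stratified markers, KRT10 was at 14.4 to 19.2 FPKM over the 6 libraries, KRT1 at most 0.109 FPKM and DSG1 at most 0.0875 FPKM. Markers of fibroblasts summed to 0.452 to 0.667 FPKM in ITGB4 siRNA libraries and 0.464 to 0.843 in control siRNA libraries, with COL1A2, COL3A1, DCN and LUM at 0. Endothelial markers summed to 0.132 to 0.223 FPKM with ITGB4 siRNA and 0.139 to 0.242 with control siRNA, with CDH5 and KDR at 0. Leukocyte markers summed to 1.84 to 2.45 FPKM with ITGB4 siRNA and 2.24 to 2.29 with control siRNA, nearly all of it CD74, with MS4A1 at 0.

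No difference in a desmosome gene between ITGB4 siRNA and control siRNA passed the test. Of the 10, 8 had a mean of at least 1 FPKM over the 6 libraries and were tested, and DSC2 and DSC3 lay below that level. At an adjusted p under 0.05 limma called 0 of the 8 in either direction, where over the whole table it called 6 of 12871 genes, or 0.0466% (0.0233% higher and 0.0233% lower). Without adjustment, 0 of the 8 had a limma p under 0.05, beside 5.83% of all genes tested (2.91% higher and 2.92% lower). Limma-voom on the recovered reads also called 0 of the 8, beside 0.202% of the genes tested. With shares so low, 0 of 8 is close to the background. The RNA is of whole cultures, where fewer cells with a transcript and less of it per cell cannot be told apart. The log2 fold changes of the 8 members ran from -0.11 (PPL) to 0.06 (PKP2), 4 above and 4 below 0, with a median of 0.00, the same as the median of all genes tested. Their median size without sign was 0.0362, against 0.0586 over all genes tested and 0.0471 over the 3884 genes with a mean of 10 to 50 FPKM. A missed threshold does not show equal levels, and the width of each interval gives what these 6 libraries can resolve. On the scale of FPKM + 1, the 95% intervals of DSP, PKP2 and PKP4 lay within -8.02% and 12.7%, and those of the other 5 within -16.9% and 20.2%.

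**Figure D1:**
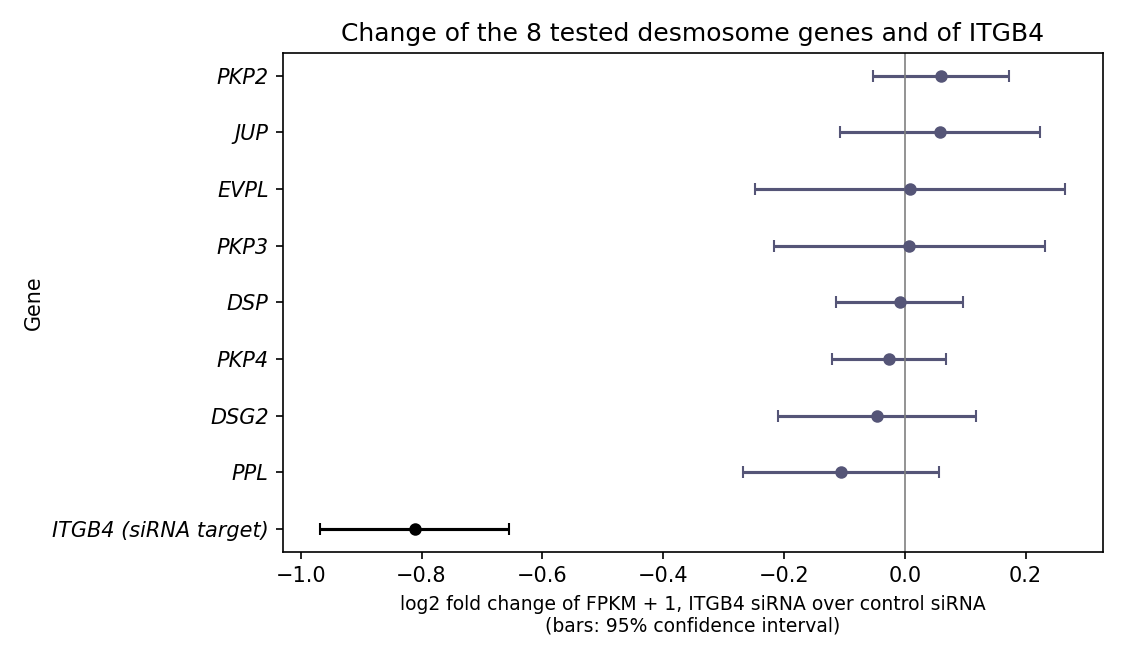
Log2 fold change of FPKM + 1 (horizontal axis), ITGB4 siRNA over control siRNA, for each tested desmosome gene and for ITGB4; points are limma estimates and bars 95% confidence intervals, from 3 libraries per group. All 8 desmosome intervals include 0, and that of ITGB4, from -0.97 to -0.66, lies apart from them.

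The cadherin layer of the SW480 desmosome genes consisted almost wholly of DSG2. DSG2 (ENSG00000046604, chr18:31498043-31549008, plus strand, desmoglein 2, the desmoglein of simple epithelia) was at 11.2, 10.9 and 11.4 FPKM with ITGB4 siRNA, against 10.9, 12.8 and 11.1 FPKM with control siRNA. The groups overlapped, and control siRNA replicate 2 was the single high value. The difference was -3.66% in mean FPKM, or -0.05 in log2 with an SE of 0.069 (95% interval -0.21 to 0.12; adjusted p = 0.998 by limma). All 7 desmoglein and desmocollin genes lie side by side on chromosome 18 of GRCh38, from the start of DSC3 at 30990008 to the end of DSG2 at 31549008. Of these, DSC1 and DSG3 had 0 reads in all 6 libraries, DSG1 at most 0.0875 FPKM and DSG4 at most 0.274 FPKM.

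DSC2 (ENSG00000134755, chr18:31058840-31102522, minus strand, desmocollin 2, the usual partner of DSG2 in colon) was at 0.225, 0.236 and 0.175 FPKM with ITGB4 siRNA, against 0.276, 0.356 and 0.320 FPKM with control siRNA. The groups did not overlap, every ITGB4 siRNA library being the lower, and the means differed by -33.3%. These levels rest on 39, 45 and 34 reads with ITGB4 siRNA and 51, 66 and 61 reads with control siRNA. Groups without overlap occurred in 11.1% of the genes tested (5.75% higher and 5.36% lower with ITGB4 siRNA). Those genes all average 1 FPKM or more, so DSC2 is not among them, and the share among genes this low was not computed. The exact two-sided permutation test gave p = 0.1 and cannot give less with 3 libraries a group. When genes of any level were fitted, DSC2 differed by -0.12 in log2 (SE 0.0574, limma adjusted p = 0.898, 95% interval -0.26 to 0.02), a scale that understates the change of so low a gene, and it was not called. The ITGB4 siRNA libraries held 118 of its 296 reads, or 39.9% (exact Clopper-Pearson 95% interval 34.2% to 45.7%, counting error only), against 49.8% of the reads of all genes. DSC3 (ENSG00000134762, chr18:30990008-31042815, minus strand, desmocollin 3, a cadherin of stratified epithelium) had 5, 0 and 3 reads with ITGB4 siRNA and 8, 4 and 2 with control siRNA, too few to compare.

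Over the 6 libraries DSG2 averaged 43.0 times the level of DSC2 per kilobase of gene length, and DSC2 7.49 times that of DSC3. DSG2 made up 95.9% ± 0.545 of the summed FPKM of the 7 desmosomal cadherins with ITGB4 siRNA and 94.997% ± 0.767 with control siRNA (SD, n = 3 each). DSC2 made up 1.82% ± 0.324 with ITGB4 siRNA and 2.60% ± 0.149 with control siRNA (SD, n = 3 each), lower in 3 of 3 ITGB4 siRNA libraries. This share restates the DSC2 levels above, from the same 34 to 66 reads per library, and is not a separate comparison. The lengths are those of all annotated exons merged, 6190 bases for DSG2 and 12495 for DSC2, so a gene whose longer annotated exons go unused has an understated level.

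**Figure D2:**
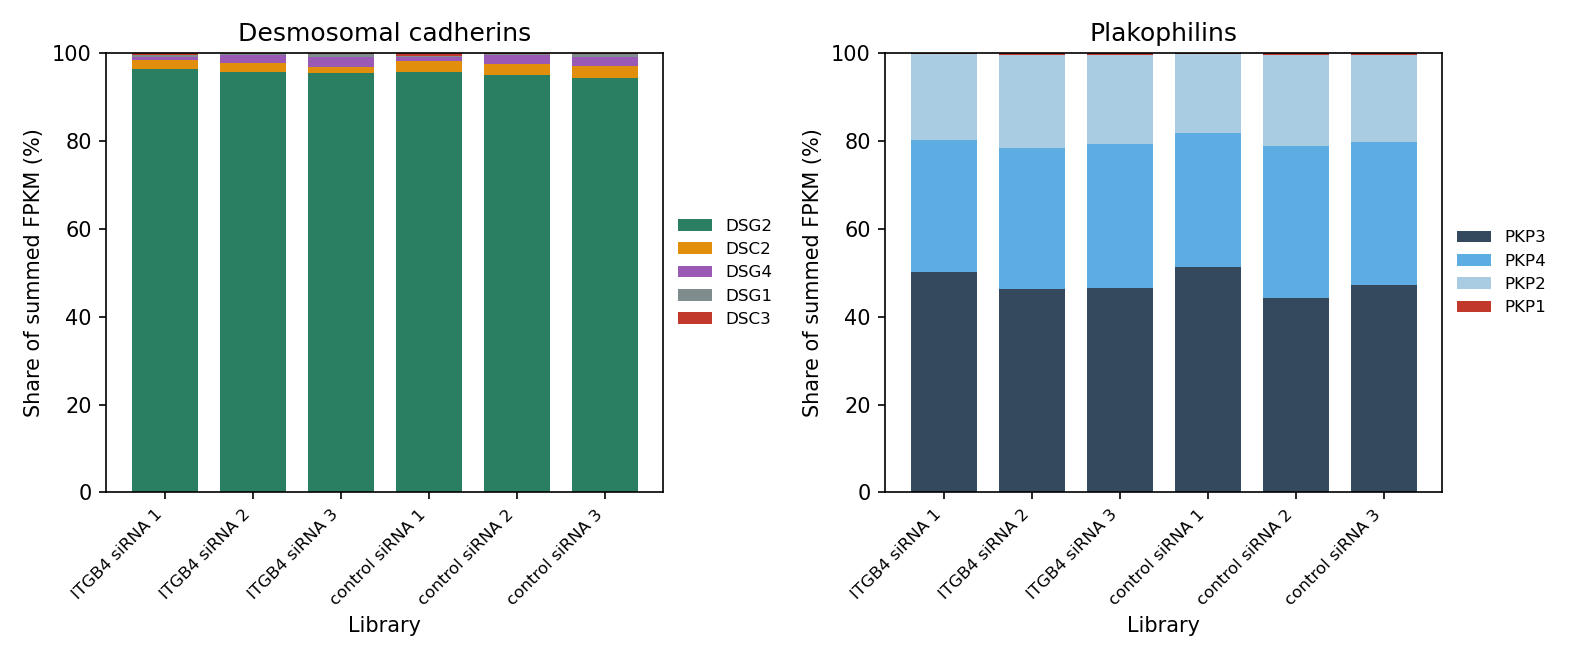
Share of summed FPKM (vertical axis, %) in each library, ITGB4 siRNA libraries left and control siRNA libraries right, for desmosomal cadherins (left panel) and plakophilins (right panel); DSC1 and DSG3 are listed at 0. DSG2 fills 94.2% to 96.5% of every cadherin bar, and PKP3 44.3% to 51.3% of every plakophilin bar.

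The promoter windows of the 3 cadherin members are shown because these neighbouring genes differ most in level. Each runs 5′ to 3′ on its gene's strand from 250 bases before to 50 bases after an annotated RefSeq start (GRCh38.p14). Capitals mark CAGGTG or its reverse complement, the E-box hexamer that the SNAI and ZEB repressors can bind. The first is DSG2, plus strand, chr18:31497927-31498226. The second is the upstream one of the DSC2 windows, minus strand, chr18:31102372-31102671. The third is DSC3, minus strand, chr18:31042693-31042992.
DSG2: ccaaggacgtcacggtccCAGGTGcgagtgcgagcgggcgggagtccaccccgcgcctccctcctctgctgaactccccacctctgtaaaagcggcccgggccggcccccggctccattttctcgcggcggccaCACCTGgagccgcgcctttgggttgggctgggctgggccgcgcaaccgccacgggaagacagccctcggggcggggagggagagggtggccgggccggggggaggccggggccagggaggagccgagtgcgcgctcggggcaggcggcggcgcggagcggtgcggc
DSC2: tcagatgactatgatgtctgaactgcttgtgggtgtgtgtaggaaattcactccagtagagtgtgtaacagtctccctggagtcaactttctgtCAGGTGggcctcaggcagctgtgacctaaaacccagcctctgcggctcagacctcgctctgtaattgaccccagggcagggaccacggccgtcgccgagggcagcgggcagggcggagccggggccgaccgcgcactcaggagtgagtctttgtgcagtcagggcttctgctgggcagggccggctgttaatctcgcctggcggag
DSC3: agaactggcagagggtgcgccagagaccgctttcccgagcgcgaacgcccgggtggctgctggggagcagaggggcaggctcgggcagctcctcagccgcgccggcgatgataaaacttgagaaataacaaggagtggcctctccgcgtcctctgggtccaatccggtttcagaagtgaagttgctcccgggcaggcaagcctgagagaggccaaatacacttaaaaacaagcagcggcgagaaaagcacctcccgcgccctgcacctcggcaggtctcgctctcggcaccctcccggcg

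The DSG2 window holds the hexamer at 232 and 116 bases before the start, the upstream DSC2 window at 156 bases before it, and the DSC3 window not at all. The other DSC2 window, not shown, does not hold it and has 65.7% G and C with 22 CpG pairs. The DSG2 window has 76.7% G and C with 36 CpG pairs, the upstream DSC2 window 60.7% with 15, and the DSC3 window 63.3% with 25, beside a median of 58.7% and 14 over all 35116 windows of the table. RefSeq windows were matched for 6 members (DSP, JUP, DSG2, DSC2, DSC3 and PKP4), 9 windows in all. The E-box was found on either strand in 4 of these 9 (DSP, JUP, DSG2 and DSC2), against 20.6% of all windows. CCAAT was found in 3 (JUP, DSC3 and PKP4), against 34.6% of all windows. TTTATG (CDX factors), CTTTGAA (TCF and LEF factors), AACCNGTT (GRHL factors) and TATAAA (the TATA box) were in 0 of the 9, and in 10.6%, 4.43%, 1.73% and 11.5% of all windows, both strands read. A match describes letters and not a bound site, and no match says only that these letters are not in these windows.

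In the plaque, JUP (ENSG00000173801, chr17:41754604-41786931, minus strand, plakoglobin, which binds the tails of desmosomal cadherins and of classical ones) was at 35.8, 33.4 and 31.3 FPKM with ITGB4 siRNA, against 34.4, 29.9 and 32.2 FPKM with control siRNA. The groups overlapped, and replicate 1 was the highest library of each. The groups differed by 0.06 in log2, with an SE of 0.0699 (95% interval -0.11 to 0.22; adjusted p = 0.998 by limma). Its close relative β-catenin, CTNNB1, was at 65.3 ± 1.72 FPKM with ITGB4 siRNA and 65.8 ± 2.53 FPKM with control siRNA (SD, n = 3 each). JUP made up 33.9% ± 1.47 of the sum of both genes with ITGB4 siRNA and 32.8% ± 2.37 with control siRNA (SD, n = 3 each), with overlapping values.

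Of the plakophilins, PKP2 (ENSG00000057294, chr12:32790745-32896840, minus strand, the member common in simple epithelia and heart) was at 16.6, 17.3 and 16.3 FPKM with ITGB4 siRNA, against 15.5, 16.3 and 16.3 FPKM with control siRNA. At more digits the lowest ITGB4 siRNA value, 16.31, exceeded the highest control siRNA value, 16.30, so the groups did not overlap by the barest margin. The difference was 4.49% in the mean and 0.06 in log2 with an SE of 0.0474 (95% interval -0.05 to 0.17; adjusted p = 0.998 by limma; exact permutation p = 0.1). PKP2 was the 1 of 8 tested members without overlap, beside the same 11.1% of all genes tested.

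PKP3 (ENSG00000184363, chr11:392614-404908, plus strand, which binds desmosomal cadherins and is common in simple and stratified epithelia) was at 42.7, 37.8 and 37.6 FPKM with ITGB4 siRNA, against 44.2, 34.7 and 38.9 FPKM with control siRNA, with means that differed by 0.239%. PKP4 (ENSG00000144283, chr2:158456964-158682879, plus strand, also called p0071, found at adherens junctions and desmosomes) was at 25.7, 26.3 and 26.5 FPKM with ITGB4 siRNA, against 26.3, 27.0 and 26.7 FPKM with control siRNA. The groups overlapped in both. PKP3 had the widest spread of the 3 plakophilins tested and PKP4 the tightest of the 10 genes, with a spread within groups of 1.46% of the mean, which is within its counting error of 1.63%. Their log2 fold changes were 0.01 (95% interval -0.22 to 0.23) for PKP3 and -0.03 (95% interval -0.12 to 0.07) for PKP4, both with a limma adjusted p of 0.998. PKP1, the plakophilin of stratified epithelium, was at 0.279 to 0.422 FPKM with ITGB4 siRNA and 0.250 to 0.402 FPKM with control siRNA. Strandedness is not given in the sources used here, and 418 bases of PKP4 exons (4.39% of its length) overlap those of PKP4-AS1, which was at 0.221 to 0.345 FPKM over the 6 libraries. The like overlap of DSG2 with DSG2-AS1 covers 171 bases, and DSG2-AS1, named after its values were seen, reached at most 0.0973 FPKM. The other genes averaging 0.1 FPKM or more that overlap a member's span (AC087588.2 at PKP2, AC005042.1 at PKP4, SEC14L5 at PPL, and CDK3 and TEN1-CDK3 at EVPL) share 0 exon bases with it.

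Among the plakins, DSP (ENSG00000096696, chr6:7541575-7586717, plus strand, desmoplakin, the obligate link to keratin) was the most abundant of the 10 genes. It was at 48.7, 50.2 and 48.8 FPKM with ITGB4 siRNA, against 47.9, 51.7 and 49.0 FPKM with control siRNA. The control siRNA values enclosed all 3 ITGB4 siRNA values, and the log2 fold change was -0.01 with an SE of 0.0444 (95% interval -0.11 to 0.10; adjusted p = 0.998 by limma).

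PPL (ENSG00000118898, chr16:4882507-4960741, minus strand, periplakin, which is known in the cornified envelope of skin and binds intermediate filaments) was at 22.9, 21.6 and 22.5 FPKM with ITGB4 siRNA, against 26.3, 22.1 and 24.2 FPKM with control siRNA. It had the largest difference of the 8 tested members, -7.58% in the mean and -0.11 in log2 with an SE of 0.0683 (95% interval -0.27 to 0.06; adjusted p = 0.987 by limma), and its groups overlapped through control siRNA replicate 2. Its size moved with single control siRNA libraries. Without replicate 2 of these the log2 fold change of PPL was -0.17, with an unadjusted p under 0.05, as in 6.61% of all genes then tested, and it was not called (limma adjusted p = 0.719). Without control siRNA replicate 1 it was -0.046 (limma adjusted p = 0.811), and no other alternative brought any of the 8 members to an unadjusted p under 0.05.

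EVPL (ENSG00000167880, chr17:76004502-76027452, minus strand, envoplakin, which pairs with periplakin) was at 16.2, 14.4 and 14.03 FPKM with ITGB4 siRNA, against 17.4, 13.1 and 13.998 FPKM with control siRNA. The means differed by 0.125%, or 0.01 in log2 with an SE of 0.108 (adjusted p = 0.998 by limma), and its 95% interval of -0.25 to 0.27 was the widest interval of the 8. EVPL lies on chromosome 17 at a distance of 246683 bases from the targeted ITGB4 gene.

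Per kilobase of gene length the order of levels, by mean FPKM over the 6 libraries, was DSP (49.4), PKP3 (39.3), JUP (32.8), PKP4 (26.4), PPL (23.3), PKP2 (16.4), EVPL (14.9), DSG2 (11.4), DSC2 (0.265) and DSC3 (0.0353). 3 pairs of neighbours had overlapping ranges over the libraries. Compared within libraries, PKP3 was above JUP in 6 of 6, whereas PKP4 was above PPL, and PKP2 above EVPL, in 5 of 6, all but control siRNA replicate 1. DSP stood above 93.8% of the genes tested and DSG2 above 67.2%. The JUP, plakophilin and plakin members were all higher per length than DSG2, the 1 abundant cadherin gene. PKP3 made up 47.6% of the summed FPKM of the 4 plakophilins in both groups (SD 2.17 with ITGB4 siRNA and 3.51 with control siRNA, n = 3 each). PKP4 followed with 31.7% ± 1.38 with ITGB4 siRNA and 32.4% ± 1.99 with control siRNA, and PKP2 with 20.3% ± 0.861 with ITGB4 siRNA and 19.5% ± 1.42 with control siRNA (SD, n = 3 each).

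**Figure D3:**
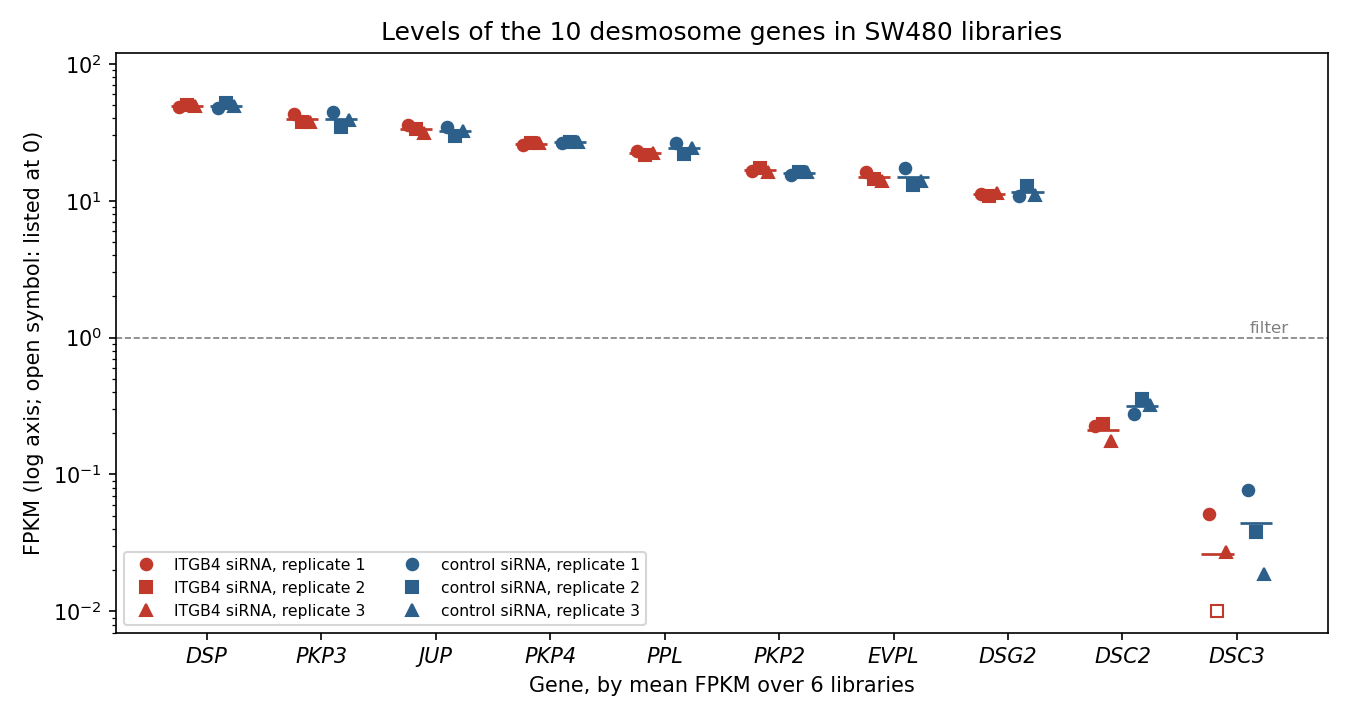
FPKM on a log axis for the 10 desmosome genes in each library, ITGB4 siRNA left and control siRNA right within a gene; short lines are group means (n = 3), the dashed line is the filter of 1 FPKM and an open symbol is a library listed at 0. The 8 upper genes lie between 10.9 and 51.7 FPKM in every library, and DSC2 and DSC3 at or below 0.356 FPKM.

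In DSP, JUP, DSG2, PKP3 and EVPL the spread within groups was wider than the difference between the group means, and the replicates of several members shared a pattern. In JUP, PKP3, PPL and EVPL replicate 1 was the highest library in both groups, and in DSP and PKP4 it was the lowest in both. EVPL exceeded its group's mean by 9.07% in ITGB4 siRNA replicate 1 and by 17.5% in control siRNA replicate 1. In ITGB4 siRNA replicate 1 the excess was 8.55% for PKP3, 6.81% for JUP and 2.65% for PPL, and in control siRNA replicate 1 it was 12.6% for PKP3, 6.88% for JUP and 8.71% for PPL. The pattern was noticed in the data and is given as a description. Replicate 1 was the highest in both groups in 4 of 8 members, beside 22.2% of all genes tested, and the lowest in both in 2 of 8, beside 23.1%. Both replicate 1 libraries also stood apart from the other 4 on the first principal component of all genes tested, which held 27.8% of the variance (-10.8 for ITGB4 siRNA and -17.3 for control siRNA, with the others at 3.28 to 14.4). Plectin, PLEC, the largest contributor to the summed FPKM of plakins, likewise had its highest value in replicate 1 of both groups (151.1 FPKM with ITGB4 siRNA and 160.9 FPKM with control siRNA, with the other libraries at 132.9 to 145.1). Of the 3 tested plakin relatives, PLEC was the only one with this order, and 1 had its lowest value in replicate 1 of both groups. Among the 11 tested genes of desmosome assembly and turnover, replicate 1 was the highest in both groups in 1 and the lowest in both in 7. The spread within groups was 12.3% of the mean for EVPL, 10.04% for PKP3 and 6.80% for JUP, where counting error gives 2.45%, 2.12% and 2.03%. DSG2, which lacks the replicate 1 pattern, also had a spread of 6.86% where counting error gives 3.08%. Its control siRNA replicate 2 was 10.6% above that group's mean. The source of the spread in these genes was not tested. Without replicate 1 of both groups, a choice made after seeing the data, limma called 0 of the 8 members (0 at an unadjusted p under 0.05) and their log2 fold changes ran from -0.09 (DSG2) to 0.06 (EVPL).

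**Figure D4:**
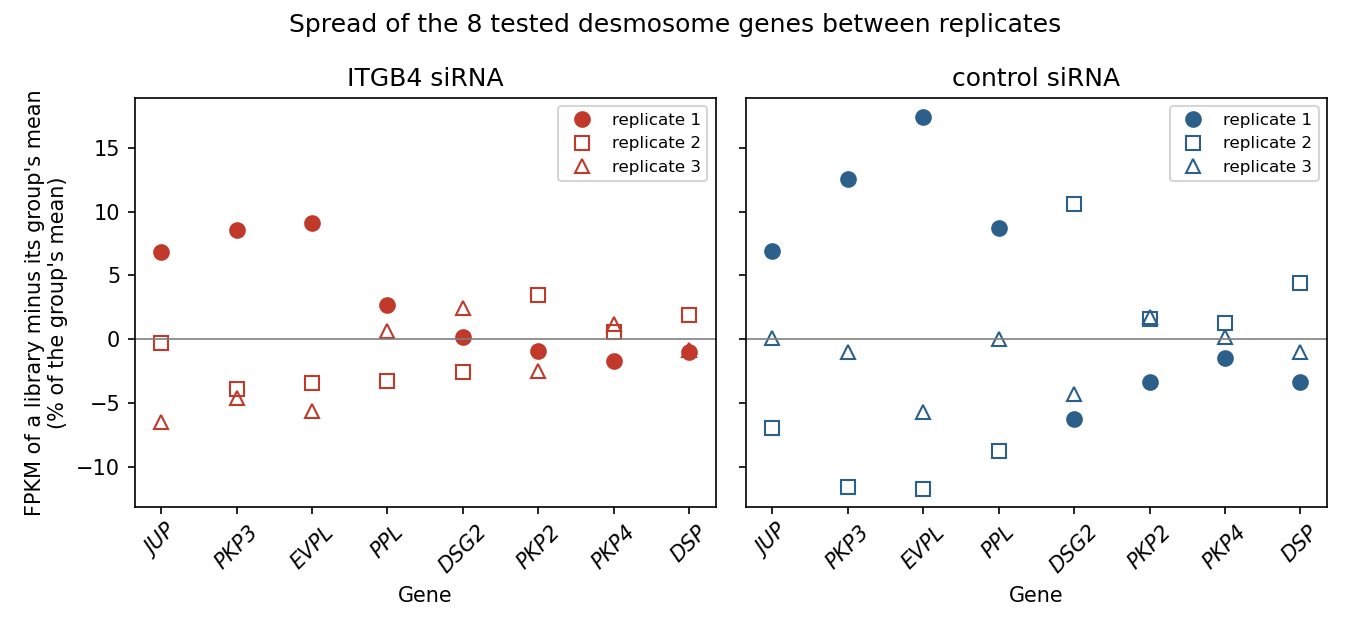
Deviation of each library from its group's mean FPKM (vertical axis, % of that mean) for the 8 tested desmosome genes, ITGB4 siRNA left and control siRNA right; filled circles are replicate 1. In JUP, PKP3, EVPL and PPL the filled circle is the highest point in both panels, up to 17.5% for EVPL with control siRNA.

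Genes that work with desmosomes were read from lists written from general knowledge. Of the 7 other desmosome genes, PERP alone passed the filter on low values. PERP, a tetraspan membrane protein of desmosomes and a p53 target, was at 69.0, 65.5 and 65.1 FPKM with ITGB4 siRNA, against 56.1, 59.5 and 56.6 FPKM with control siRNA. All 3 ITGB4 siRNA libraries lay above all 3 control siRNA libraries, an order found in 5.75% of all genes tested. The means differed by 16.0%. The log2 fold change of 0.21 (SE 0.0448, 95% interval 0.10 to 0.32) did not pass over all genes tested (limma adjusted p = 0.447, limma-voom adjusted p = 0.165, exact permutation p = 0.1). PERP thus lay further from 0 than any of the 8 tested members, a difference between genes that was not tested.

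The keratins named here overlapped between the groups. KRT8 averaged 486.3 ± 8.74 FPKM with ITGB4 siRNA and 485.6 ± 38.4 with control siRNA, and KRT18, its pairing partner, 571.4 ± 9.14 FPKM with ITGB4 siRNA and 563.6 ± 17.7 with control siRNA (SD, n = 3 each). KRT19 averaged 357.5 ± 8.68 FPKM with ITGB4 siRNA and 374.8 ± 33.9 with control siRNA (SD, n = 3 each), and KRT20, a keratin of differentiated colon cells, reached at most 0.107 FPKM. KRT8 and KRT18 have many processed pseudogenes and their annotated spans overlap on chromosome 12, so their counts are less certain. Limma and limma-voom called 0 of the 6 tested intermediate filament genes (0 by limma at an unadjusted p under 0.05), with a median log2 fold change of -0.03.

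Adherens junction genes gave a like picture, with 0 of 6 tested genes called by limma or limma-voom (0 by limma at an unadjusted p under 0.05) and a median of -0.01. E-cadherin, CDH1, averaged 6.26 ± 0.147 FPKM with ITGB4 siRNA and 6.23 ± 0.349 with control siRNA (SD, n = 3 each). In p120 catenin, CTNND1, the mean was 25.2 ± 0.765 FPKM with ITGB4 siRNA and 24.6 ± 0.423 with control siRNA, and in α-catenin, CTNNA1, 91.9 ± 0.365 FPKM with ITGB4 siRNA and 93.5 ± 2.16 with control siRNA (SD, n = 3 each). Of the plakin relatives 3 of 4 were tested and 0 called by either tool (0 by limma at an unadjusted p under 0.05), with PLEC at 142.5 ± 7.51 FPKM with ITGB4 siRNA and 146.3 ± 14.04 with control siRNA and DST, dystonin, at 1.57 ± 0.0485 FPKM with ITGB4 siRNA and 1.55 ± 0.154 with control siRNA (SD, n = 3 each).

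Of 12 genes of desmosome assembly and turnover 11 were tested, and limma called 0, as did limma-voom, with a median of -0.01. Of the 11, 1 gene had an unadjusted limma p under 0.05, beside 5.83% of all genes tested. In so short a list 1 gene is close to that share. The 1 was ADAM15, a membrane metalloproteinase named here after its values were seen, at 20.7, 21.3 and 19.7 FPKM with ITGB4 siRNA, against 17.6, 15.6 and 17.5 FPKM with control siRNA (log2 fold change 0.27, limma adjusted p = 0.496). The sheddases of DSG2 averaged 5.32 ± 0.440 FPKM with ITGB4 siRNA and 5.37 ± 0.354 with control siRNA for ADAM10, and 6.40 ± 0.152 FPKM with ITGB4 siRNA and 7.09 ± 0.877 with control siRNA for ADAM17 (SD, n = 3 each). PNN, pinin, a splicing protein also described at desmosomes, was at 36.9, 39.5 and 39.9 FPKM with ITGB4 siRNA, against 40.8, 41.5 and 40.3 FPKM with control siRNA. Its groups did not overlap, as in 11.1% of all genes tested (5.36% lower with ITGB4 siRNA). PNN was not called (log2 fold change -0.07, limma adjusted p = 0.977).

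Of 12 transcription factors known to act on desmosome genes 7 were tested, and limma and limma-voom called 0 (0 by limma at an unadjusted p under 0.05), with a median of 0.04. CDX2, an intestinal factor, averaged 20.4 ± 1.37 FPKM with ITGB4 siRNA and 22.1 ± 3.03 with control siRNA (SD, n = 3 each), and CDX1 was listed at 0 in 5 of the 6 libraries. GRHL2, an activator of epithelial junction genes, reached at most 0.0112 FPKM, and ZEB1, a repressor of epithelial genes, averaged 1.75 ± 0.223 with ITGB4 siRNA and 1.53 ± 0.227 FPKM with control siRNA (SD, n = 3 each). EZR, ezrin, which the series title names, averaged 95.03 ± 1.59 FPKM with ITGB4 siRNA and 107.5 ± 2.44 FPKM with control siRNA (SD, n = 3 each), a log2 fold change of -0.18 that limma did not call (adjusted p = 0.451).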

How the data were processed

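Messenger RNA was captured on poly-T beads, per the labels' protocols. The authors deposited FPKM per gene and library with the gene length used, and a mean FPKM per group. The build is GRCh38, and DESeq2 and edgeR are named without a role, per the submitters' processing notes. The aligner, counting tool, annotation and strandedness are not given in the sources used here. The deposited lengths of the 10 genes equal the merged exons of GENCODE 29. FPKM times length, divided by the value of 1 read, gave whole numbers (tolerance 0.01) for 100% of values in each library, which recovers reads per gene. The 6 libraries were grouped by title, 3 per group.

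Genes averaging 1 FPKM or more over the 6 libraries were tested, 12871 in all, on log2(FPKM + 1) with limma 3.58.1 (limma-trend) in R 4.3.3, two-sided, with Benjamini-Hochberg adjustment over all genes tested and a threshold of 0.05. Single genes were also compared by the exact two-sided permutation test of mean FPKM. The script was tested on simulated data. Python 3.11.15, scipy 1.17.1 and pandas 2.3.3 were used for the rest. Alternatives were another pseudocount, other filters, other scalings, robust moderation, limma-voom, a replicate block and leaving out libraries. The members, lists and tests were chosen with earlier results of these data known. Named were all 10 members, ITGB4, EZR, 18 partner genes by symbol, any listed gene called and genes overlapping a member, with exceptions marked. Also named, unmarked and outside that rule, were genes of the cell type marker lists and of the cadherin and plakophilin families.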

Additional observations from a re-analysis of the deposited data

How the results depend on the processing

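Limma called 0 of the desmosome genes in each of the 15 alternatives, and their median log2 fold change ran from -0.03 to 0.02. Leaving out 1 library turned the sign of 4 members, none of them called. Their log2 fold changes then ran from -0.070 to 0.12 for EVPL, from -0.076 to 0.095 for PKP3, from -0.032 to 0.023 for DSP and from -0.088 to 0.022 for DSG2, and without control siRNA replicate 2 all 4 turned. The other 4 kept their signs in all 15, but not their sizes: leaving out 1 library gave 0.0089 to 0.11 for JUP, 0.036 to 0.077 for PKP2, -0.036 to -0.014 for PKP4 and -0.17 to -0.046 for PPL, the smallest sizes coming without control siRNA replicate 2 (JUP), ITGB4 siRNA replicate 2 (PKP2), ITGB4 siRNA replicate 1 (PKP4) and control siRNA replicate 1 (PPL). The number of genes called over the whole table, 6 with all libraries, was 0 without a filter on low values (1356 at an unadjusted p under 0.05), 26 with limma-voom, 0 without replicate 1 of both groups (1050 at an unadjusted p under 0.05; chosen after seeing the data) and 0 to 7 when leaving out 1 library, with 0 without any 1 of the ITGB4 siRNA libraries. The cause of these shifts was not tested. The replicate block gave 0 genes (1064 at an unadjusted p under 0.05) and changed no call of a desmosome gene. Libraries with the same number deviated from their group means with correlations of 0.173, 0.102 and -0.01. Those with different numbers gave -0.174 to 0.086, so the numbers are not shown to pair the libraries. ITGB4 stayed below 0 throughout (-0.87 to -0.76) and lost its call in 7 of the 15 alternatives, with a highest adjusted p of 0.137. At 34 to 66 reads for DSC2 and 0 to 8 for DSC3, depth limits both.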
